A study of Homo sapiens with 6 samples.

Results

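The 10 genes BNIP3, BNIP3L, ANKRD37, NDRG1, P4HA1, P4HA2, KDM3A, DDIT4, ADM and MXI1 are classical targets of the hypoxia-inducible factors (HIFs) that do not encode glycolytic enzymes. They were chosen by name out of 60671 annotated genes, with earlier values of the same 6 samples in view, so their core-against-margin differences are given as a description and carry no test. RNA was sequenced from xenografts of MDA-MB-231, an established human triple-negative breast cancer line, of wild-type genotype, injected orthotopically into the fourth mammary fat pads of mice. Per the study's methods the hosts were female NSG mice of 6 to 8 weeks, a strain that lacks T, B and natural killer cells but keeps its own stroma, vessels and myeloid cells. The 3 samples of the tumor core (TC) and the 3 of the tumor margin (TM) shared line, host and injection, and differed in the zone from which tissue was taken. The labels do not say which TC and TM samples came from 1 mouse, so the tests on other genes measure only the spread between these samples.

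HIFs are heterodimers of an oxygen-labile alpha subunit and the stable beta subunit ARNT. In oxygenated cells prolyl hydroxylases of the EGLN family mark the alpha subunit for ubiquitination by the VHL complex, and in hypoxia it escapes, enters the nucleus and binds a short core in the hypoxia response elements of its targets. The targets followed here act in removal of mitochondria (BNIP3, BNIP3L), collagen maturation (P4HA1, P4HA2), restraint of growth signalling (DDIT4, MXI1), chromatin (KDM3A), vessels (ADM) and stress responses (NDRG1), and include the less studied ankyrin-repeat protein ANKRD37. In solid tumors the interior is commonly the less oxygenated zone, and RNA of such genes is widely used as a readout of hypoxia.

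Sequences are shown because these genes are grouped by a shared regulator whose core motif can be read directly. The core was searched as ACGTG and as GCGTG, on both strands, in the 250 bases before each start listed by RefSeq on GRCh38.p14. ACGTG on both strands overlaps itself in the E-box CACGTG, which then counts as 2 cores. The table held 11 starts for 8 of the 10 genes, and BNIP3L and NDRG1 had no entry. A core lay in 9 of the 11 member windows (81.8%) and in 43.2% of all 35116 windows of the same length. The windows of the KDM3A starts at 86441371 and 86441461 overlap, and the same GCGTG was counted in each. Windows with 3 or more cores numbered 3 of 11, those of BNIP3, ANKRD37 and DDIT4, against 7.76% of all windows. The E-box occurred in the windows of BNIP3 and ANKRD37, and in 6.34% of all windows. A match describes letters and is no measured binding site.

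The following stretches are written 5′ to 3′ on the strand of the gene, with cores in capitals on whichever strand they were read. BNIP3 (160 bases, minus strand, chr10:131982014-131982173) and DDIT4 (246 bases, plus strand, chr10:72273674-72273919) are shown up to the first exon of GENCODE v29. MXI1 (plus strand, chr10:110209981-110210230) is shown for the 250 bases before its second listed start, which lie within the annotated gene, downstream of its first start, and outside its exons. For ANKRD37 (chr4:185396677-185396704, plus strand), P4HA1 (chr10:73096936-73096963, minus strand), ADM (chr11:10304961-10304988, plus strand) and KDM3A (chr2:86441334-86441361, plus strand), where a longer annotated transcript covers the core, 28 bases around it are shown.
BNIP3: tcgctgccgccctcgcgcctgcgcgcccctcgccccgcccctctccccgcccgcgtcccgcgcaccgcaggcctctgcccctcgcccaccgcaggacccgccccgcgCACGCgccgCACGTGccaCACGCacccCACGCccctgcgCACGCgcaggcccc
DDIT4: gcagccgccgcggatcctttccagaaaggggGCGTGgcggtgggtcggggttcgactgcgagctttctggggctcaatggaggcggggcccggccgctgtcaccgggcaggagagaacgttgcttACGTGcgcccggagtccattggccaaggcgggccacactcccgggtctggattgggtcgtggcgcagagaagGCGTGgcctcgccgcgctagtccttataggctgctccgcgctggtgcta
MXI1: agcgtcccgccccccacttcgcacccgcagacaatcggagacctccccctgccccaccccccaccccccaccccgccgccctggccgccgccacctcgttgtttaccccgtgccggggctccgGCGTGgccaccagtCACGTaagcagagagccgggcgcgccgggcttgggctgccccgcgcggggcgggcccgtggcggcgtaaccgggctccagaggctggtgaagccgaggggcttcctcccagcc
ANKRD37: tcCACGTGccagtgtttgtgtACGTGcg
P4HA1: gtgatcgagctCACGTagcgagggctgc
ADM: agcaggagcgcGCGTGgctgaggaaaga
KDM3A: cgggaggctgtGCGTGtcttgtgagagc

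In these stretches BNIP3 carried 6 cores from position −143 to position −104, counted from the start, 4 of them GCGTG on the opposite strand, written CACGC. The E-box and ACGTG of ANKRD37 began at −162 and −143. DDIT4 held GCGTG at −219 and −53 and ACGTG at −125, and P4HA1, ADM and KDM3A held 1 core each, at −86, −101 and −26. The window of P4HA2 and the most upstream of the 3 windows of MXI1 held none.

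Abundance was deposited as TPM, which divides by transcript length so that levels may be compared between genes, but keeps no sequencing depth. All 10 genes passed the filter of at least 1 TPM in at least 3 samples, as did 13861 genes in all. The annotated MDA-MB-231 markers were present, VIM at 3797 to 5283 TPM and CD44 at 197 to 267 TPM, while of 6 epithelial or receptor markers, ESR1, PGR and CDH1 did not exceed 0.13, 0.22 and 0.36 TPM, and GATA3, EPCAM and ERBB2 were detected at 2.02 to 3.9, 3.66 to 6.02 and 22.31 to 40.73 TPM. TM replicate 3 stood apart from the other margin samples, since its column summed to 994381 and not 1000000, its loci outside the annotation held 21.1 TPM against 1573.7 to 2643 TPM elsewhere, and its skeletal muscle markers summed to 6.23 TPM against 270.93 and 685.3 TPM in TM replicates 1 and 2. The differences of the 10 genes and the list medians printed below are therefore also given without it. In bulk tissue, fewer cells of a type and less RNA per cell cannot be told apart.

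The 10 genes were on average higher in TC, yet the samples did not divide by zone. Of the 10, 9 had a higher mean log2(TPM + 1) in TC, where 33.0% of all tested genes did, and the median difference was 0.37, against −0.14 over all tested genes. In 1 of 10 every TC value lay above every TM value, where 3.28% of all genes did so. Limma called none of the 10 at an adjusted p-value under 0.05, where 0.137% of all genes were called. Because this contrast was known when the genes were chosen, nothing is read from these counts. KDM3A, the only gene with a lower mean in TC, changed to a difference of 0.0062 under quantile normalization.

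**Figure D1:**
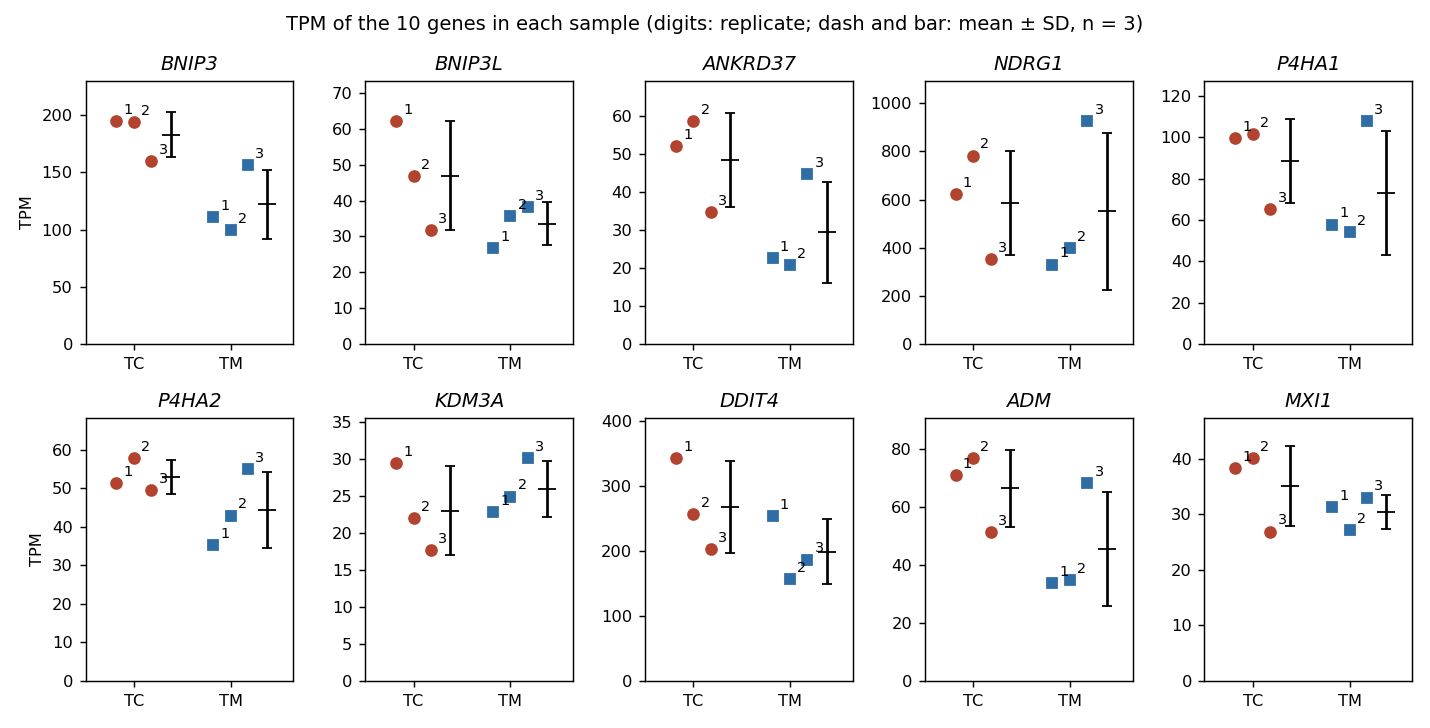
TPM of each gene in the 3 TC (circles) and 3 TM samples (squares), with the replicate number beside each point and the mean ± SD (n = 3) beside each group. In BNIP3 alone the zones do not overlap (159.89 TPM in the lowest TC sample, 156.15 TPM in the highest TM sample), and TM replicate 3 is the highest margin sample of every gene but DDIT4.

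BNIP3 (ENSG00000176171, chromosome 10, 131966455 to 131982013, minus strand, in GENCODE v29 on GRCh38) encodes a receptor of the outer mitochondrial membrane that recruits the autophagosome to mitochondria. It was measured at 194.65, 194.1 and 159.89 TPM in TC and at 110.59, 99.57 and 156.15 TPM in TM. The zones were separate in TPM as deposited, with TC replicate 3 just above TM replicate 3. That separation was lost under quantile normalization and without mitochondrially encoded genes. Mean abundance was 183 ± 19.9 TPM in TC and 122 ± 30.0 TPM in TM (SD, n = 3), a difference of 0.60 ± 0.18 (SE) on the log2(TPM + 1) scale. Leaving out any single sample gave differences from 0.47 (without TM replicate 2) to 0.79 (without TM replicate 3). Of 44 BNIP3 pseudogenes listed, 39 were at 0 in every sample and none exceeded 1.23 TPM. A pair of antisense transcripts overlaps the gene, and the more abundant of them reached 5.41 TPM, in TM replicate 3.

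BNIP3L encodes NIX, the close relative of BNIP3 in mitophagy. It was lower throughout, at 62.1, 46.84 and 31.79 TPM in TC and 26.71, 35.75 and 38.07 TPM in TM. TC replicate 3 fell below 2 of the 3 margin samples, so the zones overlapped. The difference was 0.44 ± 0.25, 0.54 without TM replicate 3, 0.69 without TC replicate 3 and 0.21 without TC replicate 1. BNIP3L is annotated on chromosome 8, from 26382898 to 26505636 on the plus strand. Of 26 other mitophagy genes tested, 14 were higher and 12 lower in TC, with a median difference of 0.04 (0.01 without TM replicate 3), but 23 were higher under median-of-ratios rescaling and 19 under quantile normalization, so the split followed the scaling. Their median was 0.17 above that of all genes as deposited. ULK1, the kinase that starts autophagy, was at 10.3 ± 0.16 TPM in TC and 18.2 ± 3.41 TPM in TM, with no overlap, but did not pass the test (difference −0.75 ± 0.19, limma adjusted p = 0.119). The receptors FUNDC1 and BCL2L13 differed by 0.09 and −0.11.

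ANKRD37 (chromosome 4, 185396021 to 185400628, plus strand) encodes a small ankyrin-repeat protein and had the widest log2 difference between zones of the 10. It was at 52.05, 58.59 and 34.64 TPM in TC against 22.71, 20.71 and 44.76 TPM in TM. The zones overlapped through TM replicate 3, which exceeded TC replicate 3. The difference was 0.75 ± 0.31 with all samples and 1.09 ± 0.23 without TM replicate 3. UFSP2, on the opposite strand, overlaps the gene and was at 10.7 to 20.54 TPM, and while the study's methods name an orientation mode for the alignment, whether the quantification used strand is not given in the sources used here.

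ADM (chromosome 11, 10304680 to 10307397, plus strand) encodes the precursor of adrenomedullin, a secreted vasodilator and angiogenic peptide. It followed the samples much as ANKRD37 did, at 71.1, 77.09 and 51.35 TPM in TC and 33.89, 34.71 and 68.38 TPM in TM. TM replicate 3 lay within the range of TC, and TM replicates 1 and 2 lay below all TC samples. The difference was 0.59 ± 0.28, and 0.91 ± 0.19 without TM replicate 3. Its paralog ADM2, at 1.63 to 3.62 TPM, differed by −0.30 ± 0.25. The peptide's receptor CALCRL was near the filter at 0.76 to 2.21 TPM, its partner RAMP2 did not exceed 1.03 TPM and RAMP3 was listed at 0 in all samples. PAM, which amidates the peptide, was at 188.95, 174.99 and 104.98 TPM in TC and 113.3, 112.89 and 163.33 TPM in TM, again high in TC replicates 1 and 2 and in TM replicate 3, with a difference of 0.24 ± 0.24 that did not pass the test (limma adjusted p = 0.691).

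NDRG1, an intracellular trafficking protein that many stresses induce, was the most abundant of the 10 genes and the one with the widest spread within zones. TC samples held 623.11, 781.99 and 354.14 TPM and TM samples 330.15, 397.04 and 925.13 TPM, which makes a margin sample the highest of all. Mean abundance was 586 ± 216 TPM in TC and 551 ± 326 TPM in TM (SD, n = 3), a difference of 0.17 ± 0.41 that is smaller than its error. Without TM replicate 3 the difference was 0.62 ± 0.29, but it was −0.12 without TM replicate 1 and −0.075 without TC replicate 2, so that its sign rested on single samples. The gene lies on chromosome 8 from 133237171 to 133302022, minus strand. Its paralogs NDRG3 and NDRG4 differed by −0.18 ± 0.16 and −0.20 ± 0.25, and NDRG2 was at 0.55 to 1.04 TPM in all samples but TM replicates 1 and 2, where it reached 4.44 and 13.43 TPM. NDRG2 thus lay above the rest in the samples with the highest skeletal muscle marker sums. The sign for NDRG4 turned under quantile normalization (0.0055) and without TC replicate 3 (0.022).

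P4HA1 and P4HA2 encode alternative catalytic subunits of collagen prolyl 4-hydroxylase, which stabilizes the collagen triple helix. P4HA1 (chromosome 10, 73007217 to 73096974, minus strand) was at 99.46, 101.47 and 65.32 TPM in TC and 57.78, 54.27 and 107.8 TPM in TM. TC replicate 3 lay near the low margin samples, and TM replicate 3 was the highest sample of all. P4HA2 (chromosome 5, 132191838 to 132295315, minus strand) was at 51.24, 57.83 and 49.46 TPM in TC and 35.28, 42.88 and 54.94 TPM in TM. Its TC values were close together, and only TM replicate 3 reached into their range. The differences were 0.32 ± 0.28 for P4HA1 and 0.27 ± 0.18 for P4HA2. They rose to 0.63 and 0.43 without TM replicate 3, and were as low as 0.14 without TM replicate 2 and 0.12 without TM replicate 1. PDLIM4 overlaps P4HA2 on the opposite strand at 105 to 145 TPM, so reads shared by both could bear on the level of P4HA2.

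Other genes of a list drawn up around collagen modification were mixed, and 1 of them, P4HTM, is no collagen hydroxylase. Of 13 tested, 5 were higher and 8 lower in TC, with a median difference of −0.06 (also −0.06 without TM replicate 3), while 8 were higher under median-of-ratios rescaling and 6 under quantile normalization, and 2 had an unadjusted p-value under 0.05, both lower, where 14.2% of all genes were lower and 1.93% higher at that level. P4HB, the beta subunit that pairs with either catalytic subunit, differed by 0.03 ± 0.15. PLOD3, a lysyl hydroxylase, was at 78.0 ± 5.56 TPM in TC and 103 ± 5.57 TPM in TM, and P3H1, a prolyl 3-hydroxylase, at 42.4 ± 2.23 and 53.7 ± 5.48 TPM. Neither passed the test (limma adjusted p = 0.168 and 0.289). PLOD2, also a lysyl hydroxylase and a HIF-responsive gene, lay the other way, with 89.11, 69.22 and 53.23 TPM for the TC samples and 54.92, 54.94 and 32.85 TPM for the TM samples, which overlap (0.57 ± 0.25, limma adjusted p = 0.323). P4HA3, the remaining catalytic subunit, did not exceed 0.23 TPM.

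DDIT4 (REDD1; chromosome 10, 72273920 to 72276036, plus strand), which restrains the growth kinase complex mTORC1 through the TSC complex, was the second most abundant of the 10. The TC samples held 342.59, 256.71 and 201.9 TPM, and the TM samples 253.37, 155.9 and 186.18 TPM. It departed from the shared order of the margin samples, with TM replicate 1 the highest and TM replicate 3 in the middle. The difference was 0.42 ± 0.23, 0.39 without TM replicate 3, and from 0.23 without TC replicate 1 to 0.61 without TM replicate 1 or TC replicate 3. A list drawn up around restraint of mTORC1 held 13 tested genes, not all of them restraints themselves (YWHAB and YWHAZ are not). Of these 13, 2 were higher and 11 lower in TC, with a median difference of −0.24 (−0.27 without TM replicate 3). Under median-of-ratios rescaling 5 were higher (median −0.08), and under quantile normalization 3 (median −0.07). The gap of 0.10 below the median of all genes fell to 0.03 without TC replicate 2 and turned to 0.01 above it without TC replicate 3. At an unadjusted p-value under 0.05, 4 of the 13 were lower, where 14.2% of all genes were. NPRL3, of the amino-acid sensing GATOR1 complex, was at 18.5 ± 1.25 TPM in TC and 29.1 ± 2.76 TPM in TM, and TSC1, TSC2 and AKT1S1 differed by −0.84, −0.57 and −0.38. None passed the test, with the smallest limma adjusted p at 0.113. Of 14 genes of the ATF4 response, a stress pathway that also induces DDIT4, 6 were higher and 8 lower in TC, with a median difference of −0.13 (−0.17 without TM replicate 3), and 9 and 8 were higher under median-of-ratios rescaling and quantile normalization. DDIT3, which encodes the stress factor CHOP, differed by 0.40 ± 0.17 (limma adjusted p = 0.301).

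MXI1 (chromosome 10, 110207605 to 110287365, plus strand) encodes a transcriptional repressor that competes with MYC for the partner MAX. It was at 38.23, 40.12 and 26.86 TPM in TC and 31.25, 27.06 and 32.98 TPM in TM, with TC replicate 3 the lowest of all samples. The difference was 0.18 ± 0.19, within its error, 0.24 without TM replicate 3, 0.36 without TC replicate 3 and 0.078 without TC replicate 2. All 11 tested genes of the MYC and MAX network other than MXI1 were lower in TC, where 9283 of all 13861 tested genes were lower. The 11 were lower under each of the scalings tried as well. Their median difference was −0.28 (−0.33 without TM replicate 3), and 6 of them had every TC value below every TM value, where 18.9% of all genes did. MYC was at 105 ± 6.05 TPM in TC and 158 ± 36.9 TPM in TM, a difference of −0.56 ± 0.17. The paralogs MXD1, MXD3 and MXD4 differed by −0.24, −0.25 and −0.23. MLXIP, SIN3B and MNT, all partners or corepressors in the network, differed by −0.78, −0.60 and −0.53. MYC and these 3 genes did not pass the test, with limma adjusted p-values from 0.087 to 0.230.

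KDM3A (chromosome 2, 86440647 to 86492716, plus strand), a Jumonji histone demethylase that removes methyl groups from lysine 9 of histone H3, had the lowest level of the 10. It was at 29.49, 22 and 17.65 TPM in TC and 22.8, 24.94 and 30.17 TPM in TM. The ranges overlapped widely and the difference was −0.19 ± 0.21, −0.077 without TM replicate 3, −0.017 without TC replicate 3 and −0.37 without TC replicate 1. Its paralog KDM3B differed by −0.35 ± 0.18, in the same direction, and JMJD1C by 0.28 ± 0.24. Of 15 tested Jumonji demethylases other than KDM3A, 12 were lower in TC, where 9283 of all 13861 tested genes were lower. Their median difference was −0.40 (−0.32 without TM replicate 3, −0.21 without TC replicate 3). At an unadjusted p-value under 0.05, 4 were lower, where 14.2% of all genes were, namely KDM2A, KDM2B, KDM5C and PHF8, with differences from −0.92 to −0.56. None passed the test after adjustment.

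The variation among samples was shared by most of the genes. TC replicate 3 was the lowest TC sample in 10 of 10 genes and TM replicate 3 the highest TM sample in 9 of 10, orders held by 51.7% and 28.2% of all tested genes. TM replicates 1 and 2 both lay below TM replicate 3 and TC replicates 1 and 2 in 8 of 10 genes, against 7.66% of all tested genes. These orders were picked after the values were seen, and genes of 1 sample share its library. The mean deviation of the 10 genes from their own means, in log2(TPM + 1), came to 0.38, 0.34 and −0.19 for the TC samples, and to −0.37, −0.39 and 0.22 for the TM samples. TM replicate 3 was thus nearer to TC replicates 1 and 2 than TC replicate 3 was.

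**Figure D2:**
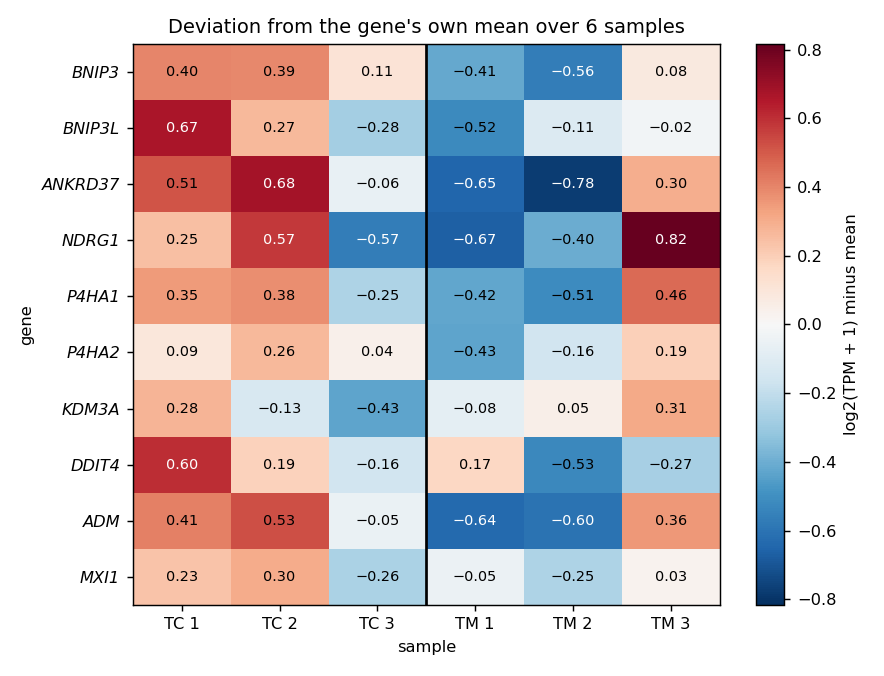
Deviation of log2(TPM + 1) from the gene's own mean over the 6 samples, with genes in rows, samples in columns and a line between TC and TM. TC replicates 1 and 2 and TM replicate 3 are mostly red (higher), TM replicates 1 and 2 mostly blue (lower), and NDRG1 in TM replicate 3 has the highest value, 0.82.

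All 45 pairs of the 10 genes had a positive Pearson correlation of log2(TPM + 1) over the 6 samples, with a median of 0.72, the highest (0.99) between ANKRD37 and ADM and the lowest (0.077) between BNIP3 and KDM3A. With 6 samples of 2 zones these are descriptions only. P4HA1, ANKRD37 and ADM followed the mean of the other 9 genes most closely (r = 0.96, 0.95 and 0.95), and KDM3A and DDIT4 least (0.38 and 0.49). ANKRD37, P4HA1 and ADM had 3, 1 and 1 cores in the windows described above, and DDIT4 and KDM3A had 3 and 1 per window.

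Among other tested genes, those whose log2(TPM + 1) was most like the mean standardized level of the 10 over the 6 samples were PIGK (Pearson r = 0.998, Spearman rho = 1), CD58 (0.997 and 1), CPE (0.991 and 1), TMEM45A (0.986 and 0.94) and STK17A (0.984 and 1). PIGK, which belongs to the enzyme complex that attaches GPI anchors, was at 29.19, 27.46 and 19.11 TPM in TC and 16.78, 16.41 and 24.62 TPM in TM. CD58, a cell adhesion ligand, was at 72.04, 68.5 and 54.54 TPM in TC and 52.34, 50.57 and 66.26 TPM in TM. Both had TM replicate 3 above TC replicate 3, as 8 of the 10 genes and 61.9% of all tested genes did. Likeness above 0.8 was reached by 11 of 37 other HIF-responsive genes (29.7%) and by 2 of 15 HIF-responsive glycolysis genes (13.3%). Of the 13851 tested genes outside the 10, 2.84% reached it. The 37 are not all outside glycolysis, since they hold HK2, PFKFB3 and PFKFB4.

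RNA of marker lists for host cell types varied between the samples as well, and whether it came from host cells was not tested. The 12 fibroblast markers came to a sum of 69.98, 128.03 and 232.71 TPM in the TC samples, and of 488.46, 1029.65 and 97.46 TPM in the TM samples, lowest where the 10 genes were high and highest in TM replicates 1 and 2. COL1A1 held most of each sum, from 44.71 to 698.15 TPM, DCN was at 0 in all samples but TM replicate 1 (4.82 TPM), and 3 of the 12 markers were under 1 TPM in every sample. Skeletal muscle markers (14 of 15 matched by symbol) summed to 9.64, 12.35 and 8.73 TPM in TC and 270.93, 685.3 and 6.23 TPM in TM. The muscle sum was thus low in TM replicate 3 and in all of TC, TC replicate 3 included, where the 10 genes were low.

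Endothelial markers summed to 29.29 to 34.71 TPM in TC and 31.58 to 44.74 TPM in TM, mostly through ESAM, with EMCN at 0 in all samples. Macrophage markers summed to 96 to 109.96 TPM in TC and 102.76 to 112.29 TPM in TM, mostly through CD68, with C1QA, C1QB and TYROBP at 0 in all samples. The adipocyte list did not exceed 1.64 TPM and the erythroid list 6.93 TPM in sum. Ribosomal protein genes held 24.4, 26.8 and 26.2% of TPM in TC and 20.4, 19.8 and 23.9% in TM. The libraries were aligned to the human genome, no step that parts mouse from human reads is described in the sources used here, and the part of host tissue and of ribosomal protein genes in the values of the 10 genes was not tested.

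**Figure D3:**
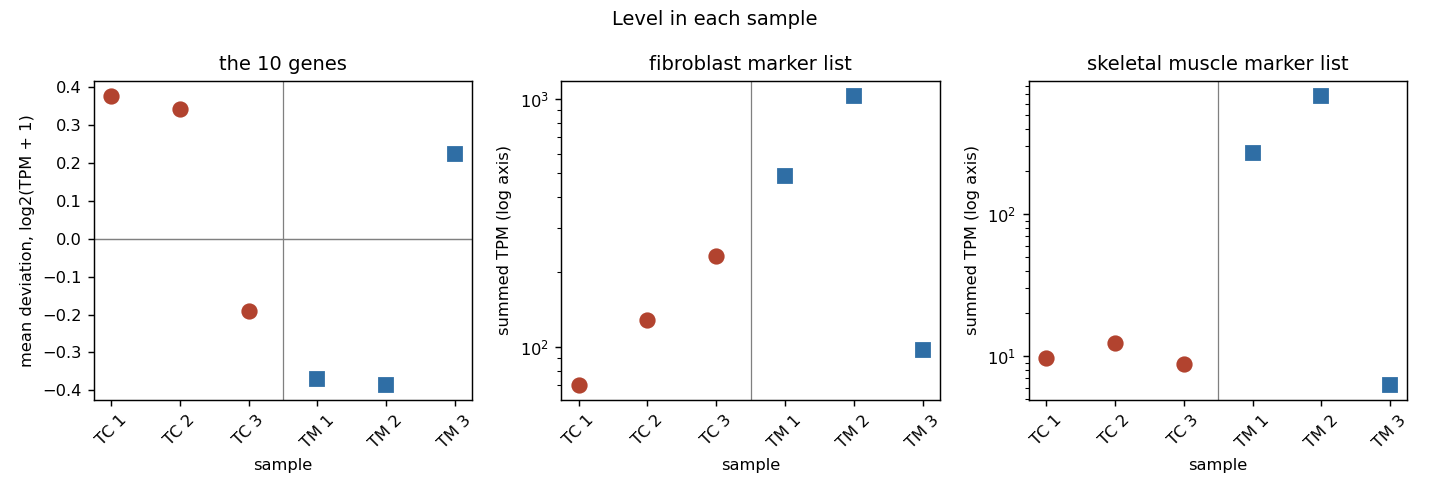
Left, mean deviation of the 10 genes in each sample; middle and right, summed TPM of the fibroblast and skeletal muscle marker lists on log axes (TC circles, TM squares). The 10 genes are lowest in TM replicates 1 and 2, where the fibroblast lists sum to 488.46 and 1029.65 TPM and the muscle lists to 270.93 and 685.3 TPM.

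Without TM replicate 3, the median difference of the 10 genes was 0.58 (all genes −0.19), 9 were higher in TC, and 5 had every TC value above both remaining TM values, where 5.98% of all genes did. Without TC replicate 3 the median was 0.56, 9 were higher and 6 had both remaining TC values above every TM value, where 7.41% of all genes did. Without TC replicate 1 the median fell to 0.22. Median-of-ratios rescaling and quantile normalization, which set the median of all genes to 0.02 and 0.01, left the median of the 10 genes above it by 0.53 and 0.41, against 0.51 in TPM as deposited. The share of all genes higher in TC was 52.8% and 51.7% under these scalings.

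**Figure D4:**
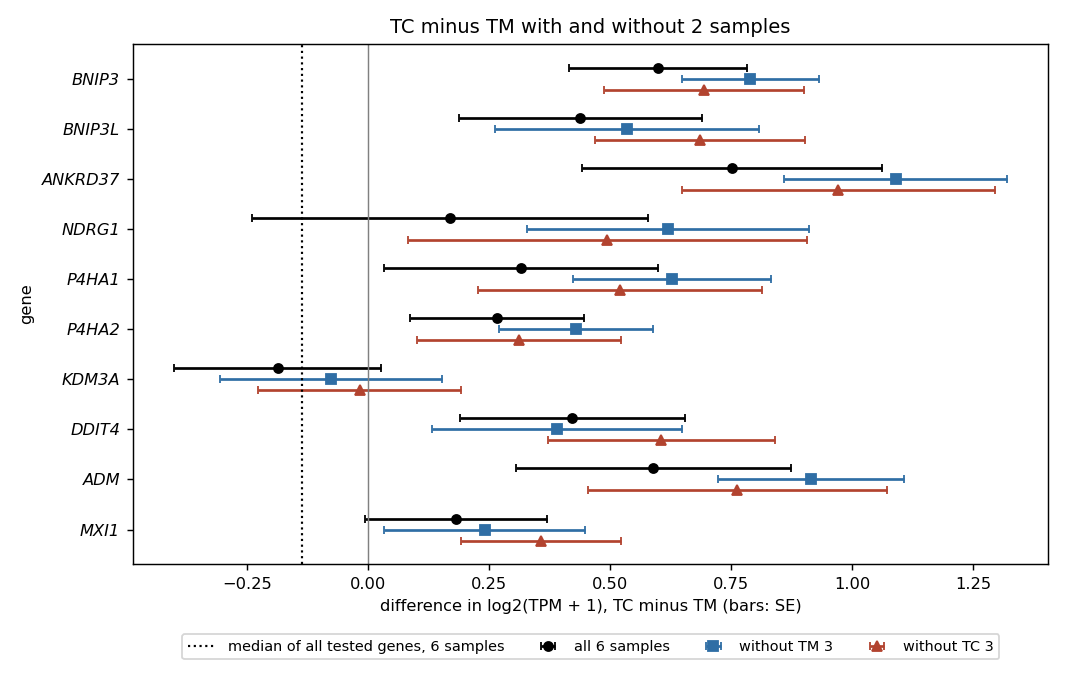
Difference in log2(TPM + 1), TC minus TM, for each gene with all 6 samples (circles), without TM replicate 3 (squares) and without TC replicate 3 (triangles), with bars for the SE and a dotted line at the median of all tested genes, −0.14. NDRG1 moves from 0.17 to 0.62 without TM replicate 3, while KDM3A stays below 0 in all 3 settings.

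The other HIF-responsive genes, a list that also holds HK2, PFKFB3 and PFKFB4 of glycolysis, were higher in TC in 24 of 37 cases. Their median difference was 0.16. The median was 0.22 without TM replicate 3, 0.26 without TC replicate 3, 0.045 (20 of 37 higher) without TC replicate 1, 0.081 without TC replicate 2 and 0.093 without TM replicate 1, and 0.33 under either rescaling, with 32 (median-of-ratios) and 30 (quantile) higher. In 3 of the 37, all higher in TC, the unadjusted p-value was under 0.05, where 1.93% of all genes were higher at that level. They were FAM162A, a mitochondrial protein (113 ± 16.6 TPM in TC, 76.7 ± 3.55 TPM in TM), RAB20, a small GTPase (12.9 ± 1.52 and 8.55 ± 1.24 TPM), and AK4, a mitochondrial adenylate kinase (40.7 ± 7.24 and 30.6 ± 0.56 TPM). In each of the 3 the zones did not overlap, where 3.28% of all genes had every TC value above every TM value. The 3 were picked by their p-values in these same samples, which favours separate zones. TM replicate 3 lay near the other margin samples, at 80.58, 8.52 and 31.02 TPM. For AK4, TC replicate 3 lay just above it, at 32.31 TPM. None of the 3 genes passed the test (limma adjusted p = 0.123, 0.226 and 0.307). VEGFA, the main angiogenic growth factor, differed by −0.25 ± 0.30, with its highest value, 185.95 TPM, in TM replicate 3. CA9, a membrane carbonic anhydrase, was at 36.46, 58.54 and 27.3 TPM in TC and 20.35, 20.76 and 49.53 TPM in TM, the pattern of ANKRD37 and ADM.

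Glycolysis genes responsive to HIF were split 8 higher to 7 lower in TC, with a median difference of 0.04 (0.07 without TM replicate 3), and all 15 were higher under median-of-ratios rescaling but 7 under quantile normalization. Their median minus that of all genes was 0.18 as deposited, 0.20 under median-of-ratios rescaling and −0.02 under quantile normalization. PGK1, which makes ATP in glycolysis, was at 1157 ± 86.7 TPM in TC and 920 ± 57.4 TPM in TM, with no overlap, and did not pass the test (0.33 ± 0.12, limma adjusted p = 0.232). HIF subunits and oxygen-sensing genes were split 7 to 7, with a median difference of −0.06 (−0.15 without TM replicate 3), but 11 were higher under quantile normalization and 10 under median-of-ratios rescaling. HIF1A RNA was at 70.38, 48.18 and 52.24 TPM in TC and 67.39, 73.27 and 35.6 TPM in TM, a difference of 0.003 ± 0.28, and was lowest in TM replicate 3. EGLN2 and HIF1AN, hydroxylases that act on HIF alpha, differed by −0.50 and −0.53. The hydroxylases EGLN1 and EGLN3 lay the other way, at 0.18 ± 0.17 and 0.17 ± 0.27. ELOB and RBX1, subunits of the VHL ubiquitin ligase, differed by 0.36 and 0.52. Limma adjusted p-values of EGLN2, HIF1AN, ELOB and RBX1 ran from 0.151 to 0.307.

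**Figure D5:**
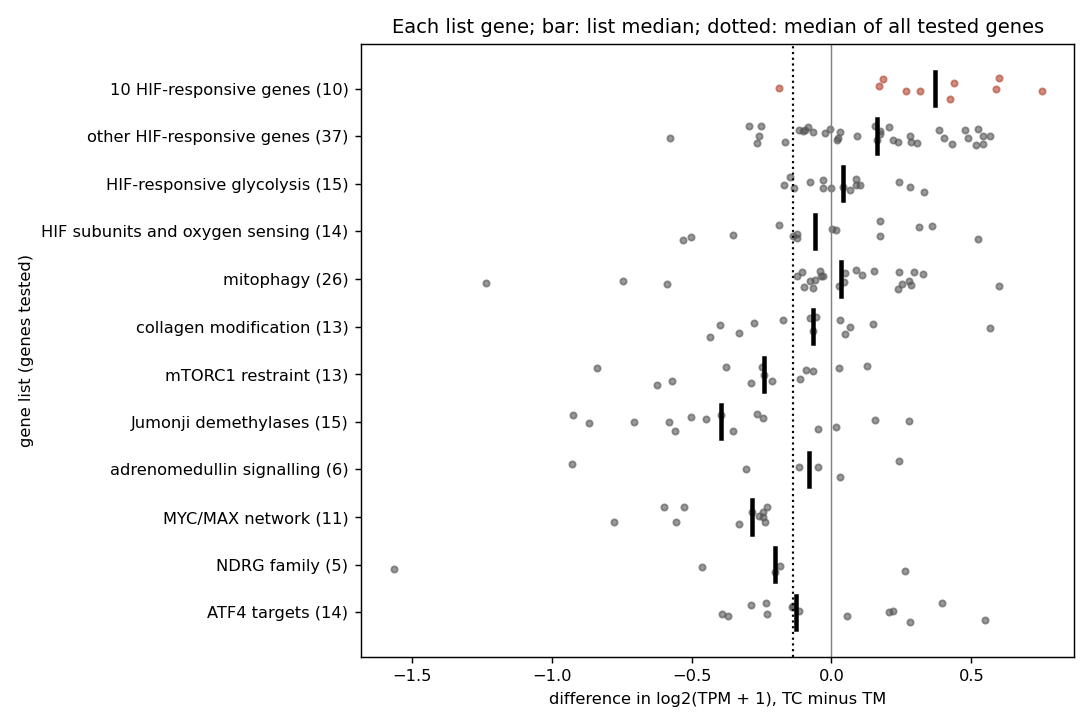
Difference in log2(TPM + 1), TC minus TM, of each tested gene (points) in 12 gene lists, with the list median as a bar and the median of all tested genes, −0.14, as a dotted line. The 10 genes have a median of 0.37, other HIF-responsive genes 0.16 and HIF-responsive glycolysis genes 0.04, while the MYC and MAX network lies wholly below 0.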

How the data were processed

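RNA-seq of 3 TC and 3 TM samples was analysed. Per the labels and the study's methods, the authors trimmed reads with SeqPrep and Sickle, aligned them to hg38 with HISAT2, assembled them with StringTie and quantified genes with RSEM, and deposited a matrix of TPM. Versions and annotation release are not given in the sources used here. TPM keeps no depth, so no count model or counting interval could be had. Of 60930 features, 259 loci outside the annotation were left out, and symbols were matched for 60401 of 60671 genes. Positions are those of GENCODE v29 on GRCh38, and promoter windows those of RefSeq.

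TC and TM were compared on log2(TPM + 1), which understates changes of low genes, by limma 3.58.1 in R 4.3.3 (two-sided, empirical Bayes with a mean-variance trend, no covariate), over genes that reached 1 TPM in 3 or more of the 6 samples, with Benjamini-Hochberg adjustment over all 13861. The script was tested on simulated data. All 10 genes are named, with their tested paralogs and the 5 genes most alike in pattern. By the same rule, at most 4 genes per pathway list with an unadjusted p-value under 0.05 are named. Named beyond that rule, after their values were seen, were FUNDC1, BCL2L13, PAM, P4HB, PLOD2, VEGFA, CA9 and HIF1A. So were EGLN1, EGLN3, P4HTM, the receptor genes and the host markers. The members and lists were chosen with earlier results of these data known. The alternatives were 9 settings of filter, pseudocount, scaling, block and variance model, and leaving out each sample.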

Additional observations from a re-analysis of the deposited data

How the results depend on the processing

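The 10 genes were higher in TC in 9 cases in TPM as deposited, in 10 under quantile normalization and in 8 to 9 with 1 sample left out. The filters, the block and the variance models cannot change a difference of these genes, and left their median at 0.37. It stayed above 0 in the alternatives that could change it, namely pseudocount, scaling and left-out samples. The number of the 10 with every TC value above every TM value, 1, became 0 under quantile normalization and 2 under median-of-ratios rescaling. It was 0 without mitochondrially encoded genes and 1 to 6 with 1 sample left out. The share of all genes with TC above TM moved too, from 3.28% to 8.72%, 8.87%, 2.34% and 5.03 to 7.41%. In TPM as deposited, 18.9% of all genes had every TC value below every TM value. The number of the 10 with TC above TM was 2 without TM replicate 1, 6 without TC replicate 3 and 5 without TM replicate 3. Without TC replicate 1 it was 1, and KDM3A lay below TM without overlap. Over all genes, 19 were called, against 1 without a filter on low values, 7 with a pseudocount of 0.1, 4 under quantile normalization, 6 under median-of-ratios rescaling, 12 without a mean-variance trend, 47 with robust empirical Bayes and 1 to 17 with 1 sample left out. The count was 1 without TC replicate 3 or TM replicate 1, 4 without TC replicate 1 and 9 without TM replicate 2, and the cause of these shifts was not tested. With the replicate number as a block 1 gene was called. Same-numbered samples deviated from their zone means with correlations of 0.21, −0.12 and −0.16, and differently numbered ones with −0.23 to 0.32. With 3 samples a zone, these values cannot show whether same-numbered samples came from 1 mouse. The difference of NDRG4 turned from −0.20 to 0.0055 under quantile normalization and ranged from −0.37 to 0.0219 with 1 sample left out. No gene of the pathway lists was called in any setting. TPM without counts leaves the precision of single values unknown, and 3 samples a zone limit every comparison.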
